A study of Mus musculus with 8 samples.

Results

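Monocytes are white blood cells that leave the blood for tissues under stress, where they turn into macrophages or dendritic-like cells. Classical mouse monocytes carry the surface protein encoded by Ly6c2 and follow chemokine signals through the receptor Ccr2. Once in a tissue they can raise MHC class II, the complex that shows foreign peptides to helper T cells, and lose the inflammatory genes with which they arrived. Cells of this kind were described here in mouse tongue epithelium carrying a pair of inducible oncogenic transgenes. They were chosen by their own reads: a cell needed at least 5 UMIs (unique molecular identifiers, 1 for each captured RNA molecule) of Lyz2, the lysozyme gene of myeloid cells, and a UMI of at least 2 of the 4 genes Ly6c2, Ccr2, Plac8 and Chil3. It also had fewer than 2 of Saa3, Saa1 and Csf3 detected, fewer than 5 UMIs of the macrophage complement genes C1qa, C1qb and C1qc together, at most 1 UMI of the neutrophil granule genes Ngp and Camp, and none of the T-cell gene Cd3e. Of 42550 cell barcodes in 8 libraries, 25199 passed the limits on genes, UMIs and mitochondrial share, 11763 of these were low in 5 keratins, and 1079 were monocytes by this rule.

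The mice formed 4 groups, all carrying Krt14-CreERT and LSL-rtTA, which switch transgenes on in basal keratinocytes after tamoxifen and doxycycline. N carried no oncogenic transgene, E carried tetON_E6-E7 with the E6 and E7 genes of human papillomavirus, Y carried tetON_YAP1S127A, an active form of the transcriptional co-activator YAP1, and EY carried both transgenes. Each group had 2 libraries of sorted viable cells, named by group and replicate (N1 to EY2), and tongues were taken from littermates of 8 to 16 weeks, 15 days after induction. Because Cre was driven from the Krt14 promoter, the transgenes were aimed at the epithelium and not at the monocytes, so each comparison concerned immune cells beside changed keratinocytes. The age range, the induction time and a tetON_H2B-GFP reporter in all groups come from the methods of the study and not from the sample labels.

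Monocyte numbers were uneven. N1 gave 19, N2 85, E1 67, E2 47, Y1 334, Y2 50, EY1 361 and EY2 116 monocytes. Their median depth ran from 5229 UMIs and 1589 genes per cell in EY2 to 15676 UMIs and 3367 genes in E2, and 11782305 UMIs came from monocytes in all. One barcode occurred among the monocytes of more than 1 library. Markers of other cells were summed over each list in CPM, counts scaled to a common library total. The T or NK cell list stood at 2.22 to 105 CPM and the mast cell list at 0 to 0.947 CPM, with 5 of its 7 genes at 0. Fibroblast and vessel genes reached 3372 CPM in N1 against 13.3 to 74.8 elsewhere, haemoglobin genes 4948 CPM in N2 and 819 in EY1 against 2.58 to 61.3 elsewhere, and keratinocyte genes 2809 CPM in EY2 against 272 to 743 elsewhere. A keratin UMI was found in 87.2 to 100% of the monocytes of each library, and its part in the results was not tested beyond the values given beside them. The neutrophil list, which opens with S100a8 and S100a9, ran from 286 CPM in N1 to 66440 CPM in EY2, and 37 monocytes were high in a set of further neutrophil genes, 9 of them among the 47 cells of E2.

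The genes that chose the cells are given as a description, with no test. Chil3, a chitinase-like lectin of myeloid cells, was detected in 57.9 and 68.2% of monocytes in N, 25.4 and 66.0% in E, 96.1 and 82.0% in Y, and 97.5 and 92.2% in EY. T cells, which should lack Chil3, held a UMI of it in 0 to 0.694% of cells in N and E, 10.9 and 0.405% in Y, and 47.0 and 15.2% in EY, at median depths of 3027 to 7894 UMIs. Its level was 783 and 763 CPM in N, 307 and 1393 in E, 4919 and 2123 in Y, and 17033 and 14063 in EY. Ccr2 was lowest in EY, at 116 and 93.5 CPM against 150 to 389 CPM in the other libraries, and was detected in only 23.3% of monocytes in the shallow EY2 library. Ly6c2 was highest in E1, at 3535 CPM, and ran from 377 to 1865 CPM elsewhere. The cut at 5 UMIs of Lyz2 left 51 cells just inside and 42 with 4 UMIs just outside. Detection of 2 of the 4 genes held for 256 of the members, while 135 cells with 1 of the 4 fell just outside. Most monocytes were far from the macrophage limit, with 934 holding no C1q UMI, 8 holding 4 and 18 cells just outside holding 5. In contrast, 707 monocytes held 1 of Saa3, Saa1 and Csf3, and 106 cells were outside because they held 2.

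Monocytes made up a larger share of immune cells in the EY libraries. EY was not tested against a single group, since an exact permutation test of 2 against 2 libraries cannot give p below 0.333. Neither transgene passed a test over 4 against 4 libraries. Their share of Ptprc-positive keratin-low cells (Ptprc encodes CD45, the common leukocyte antigen) was 3.07 and 6.20% in N, 9.92 and 5.09% in E, 8.40 and 4.50% in Y, and 23 and 13.3% in EY. Both EY libraries stood above all others. Libraries with YAP held 12.3% ± 8.0 (SD, n = 4) and those without it 6.07% ± 2.88 (SD, n = 4), 6.24 percentage points more, which did not pass a two-sided exact permutation test (p = 0.229, or 0.305 adjusted over 4 such tests). With E6-E7 the share was 12.8% ± 7.58 against 5.54% ± 2.29 without, or 7.30 points more (p = 0.0857 by the same exact test, 0.171 adjusted). The smallest p that 4 against 4 libraries can give is 0.0286. Among the 3 myeloid gates (monocytes, cells with at least 5 C1q UMIs, and the Saa3 and Csf3 gate) monocytes were 18.3 and 37.0% in N, 30.6 and 37.9% in E, 31.1 and 14.6% in Y, and 66.2 and 39.6% in EY. That share differed by 6.95 points for YAP (exact test, p = 0.657) and by 18.3 points for E6-E7 (exact test, p = 0.0857, 0.171 adjusted). The YAP difference in this share rested on EY1, and was −2.50 points without it. All these shares depend on how many other cells were released and sorted, and fewer cells of another kind cannot be told apart from more monocytes. The part of the choosing rule in these shares was not tested. Chil3, 1 of the 4 choosing genes, was found in T cells most often in EY, as given above. The 106 cells left out for holding 2 of Saa3, Saa1 and Csf3 were 56 in EY1, 23 in EY2, 23 in Y1 and 4 in Y2.

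**Figure D1:**
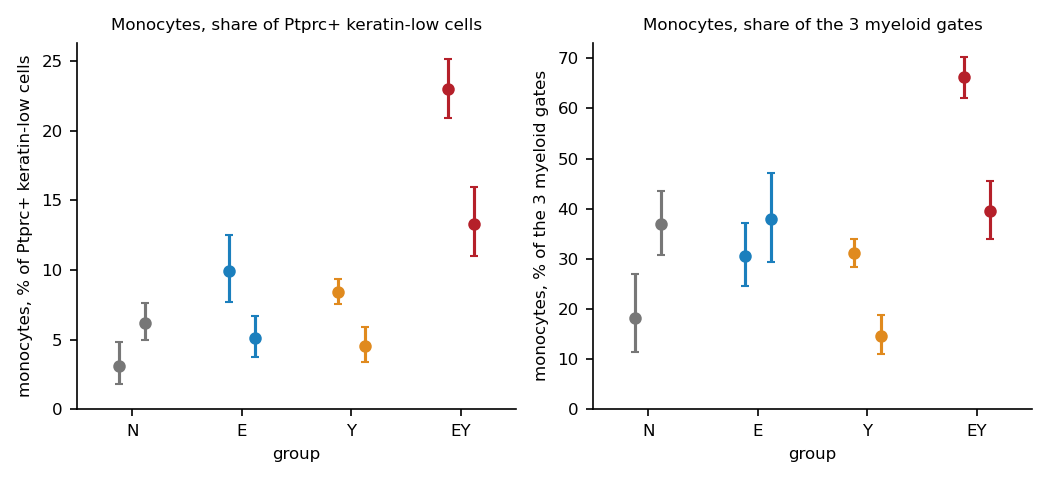
Share of monocytes in each library by group, with 95% exact binomial (Clopper-Pearson) intervals that cover counting error only, as a percentage of Ptprc-positive keratin-low cells on the left and of the 3 myeloid gates on the right. EY1 stood highest in both panels at 23% and 66.2%, and EY2 at 13.3% and 39.6%.

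Many monocytes were in a state high in MHC class II or a state high in S100 alarmins. Few cells held both, and others were in neither. To set cells of unequal depth side by side, each was thinned to 2000 UMIs, which left out none of them. A cell was called MHC-II-high with at least 10 UMIs of the class II genes and S100-high with at least 10 UMIs of S100a8 and S100a9, which encode the calprotectin subunits of neutrophils and inflammatory monocytes. MHC-II-high cells were 63.2 and 40% of monocytes in N, 77.6 and 70.2% in E, 77.8 and 68.0% in Y, and only 21.1 and 22.4% in EY. S100-high cells were 0 and 2.35% in N, 1.49 and 21.3% in E, 17.4 and 8% in Y, and 70.4 and 59.5% in EY. The 0 of 19 cells in N1 allows a share of up to 17.6% by the exact interval. The EY libraries did not overlap the other 6 in either state, and the cells in both numbered 8 in Y1, 1 in Y2 and 7 in EY1. Cells in neither state were 36.8 and 57.6% in N, 20.9 and 8.51% in E, 7.19 and 26% in Y, and 10.5 and 18.1% in EY. Under the same cut, T cells were S100-high in at most 4.17% and C1q macrophages in at most 8.94% of cells of a library, both in EY1, where 70.4% of monocytes were. The states were cut on these genes, so the shares are a description and carry no test.

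Other genes differed between the states in the same direction in each of the 3 libraries with at least 20 cells of both (Y1 with 50 S100-high and 252 MHC-II-high cells, EY1 with 247 and 69, EY2 with 69 and 26, cells in both states left out). These are levels in the cells that were sorted into states, given without a test. S100-high cells were higher in Vcan, which encodes versican, a matrix proteoglycan that marks classical monocytes, with 589, 489 and 382 CPM against 34.3, 103 and 67.5 CPM in MHC-II-high cells. Ifitm6, an interferon-induced membrane protein of monocytes, stood at 451, 465 and 340 CPM against 4.96, 16.9 and 33.8 CPM. Lrg1, a secreted leucine-rich glycoprotein, stood at 712, 834 and 829 CPM against 33.5, 61.4 and 110 CPM, and Thbs1, the matrix protein thrombospondin, at 3941, 2175 and 1963 CPM against 663, 281 and 354 CPM. MHC-II-high cells were higher in Csf1r, Cxcl16 and Ccl17, given as examples. The choosing rule set no limit on dendritic cell genes, and the part of such cells was not tested. Csf1r, the receptor for the macrophage growth factor, stood at 602, 468 and 439 CPM against 152, 161 and 165 CPM. Cxcl16, a chemokine for activated T cells, stood at 912, 858 and 760 CPM against 46.1, 71.2 and 27.1 CPM. Ccl17, a chemokine of dendritic-like cells, stood at 299, 218 and 50.6 CPM against 4.01, 1.15 and 0 CPM. The 10 S100-high cells of E2 were unlike these. They held no Ccr2 UMI, 45658 CPM of S100a9 against 17243 to 21717 CPM in the 3 larger sets, and 69.8 CPM of Vcan. In N2, Vcan stood at 52.7 CPM in the 34 MHC-II-high cells and had 0 UMIs in the 2 S100-high cells. Its level over all N2 monocytes, given below, was higher than either. Results without the 37 cells high in neutrophil genes are given beside those they touch.

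H2-Aa, H2-Ab1 and Cd74, genes of MHC class II, were lowest in EY and higher in E and Y than in N, and the transgenes together differed from the sum of each alone. H2-Aa, which encodes an alpha chain of the class II dimer, stood at 3277 and 2730 CPM in N, 4995 and 5389 in E, 6639 and 5562 in Y, and 1052 and 990 in EY. Cd74, the invariant chain that guides class II molecules through the cell, stood at 9033 and 6877 CPM in N, 13453 and 13576 in E, 14526 and 13087 in Y, and 3066 and 3238 in EY. H2-Ab1, the beta chain partner of H2-Aa, followed with 3719 and 2843, 6364 and 5607, 7412 and 5854, and 1164 and 1268 CPM. For all 3 genes the EY libraries lay below the N libraries, and the E and Y libraries lay above them. In the main fit no class II gene was called in E against N or Y against N by itself, although 10 and 11 of 12 had an estimate above 0 (medians 0.62 and 0.71). Where cells needed at least 3 of the 4 choosing genes, H2-Aa, H2-Ab1 and Cd74 were called in E against N. The change with E6-E7 beside YAP minus the change with E6-E7 alone, an interaction that was chosen for testing after these data were seen, was −3.37 ± 0.30 (log2, SE) for H2-Aa, −3.32 ± 0.32 for H2-Ab1 and −2.90 ± 0.28 for Cd74, each with an adjusted p = 0.00246 (edgeR quasi-likelihood test). Of 6338 genes tested, 8 passed at an adjusted p of 0.05 in this interaction (0.126%), 6 lower (0.0947%) and 2 higher (0.0316%).

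These 3 genes were the only ones with a call in all 18 alternatives to the interaction fit that were run, with log2 values from −4.55 to −2.74 over the 3. All 12 genes of a class II presentation list had an estimate below 0, with a median of −1.98 against −0.03 over all genes. Of the 12, 4 were called lower, against 0.0947% of all genes. The 4th was H2-DMb2, a chaperone chain that helps load peptide, at 34.1 and 31.3 CPM in N, 64.5 and 161 in E, 96.4 and 131 in Y, and 23.6 and 25.3 in EY (−4.06 ± 0.61, adjusted p = 0.0420). Without cells of any 1 library the sign never changed, but H2-DMb2 was called under 8 of 18 alternatives only. Between EY and Y, also compared after seeing the data, 22 genes were called (0.347%), 10 of them lower (0.158%) and 12 higher (0.189%). Of the 12 class II genes, 4 were among those lower: H2-Aa (−2.58 ± 0.22, adjusted p = 0.00197), H2-Ab1 (−2.45 ± 0.24), Cd74 (−2.13 ± 0.20, both adjusted p = 0.00211) and Ciita, the master regulator of the class II genes (−1.85 ± 0.30, adjusted p = 0.0391). Ciita stood at 74.9 and 45.5 CPM in N, 69.6 and 81.7 in E, 85.4 and 82.0 in Y, and 22.2 and 25.3 in EY.

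The lower class II level of EY was seen both as fewer high cells and as a lower level summed over the high cells, which were cut on these genes. Within MHC-II-high cells, H2-Aa stood at 4598 and 4169 CPM in EY1 and EY2 against 5634 to 8654 CPM in the other 6 libraries. Cd74 in the same cells stood at 12065 and 12482 CPM against 14969 to 18810 CPM. The C1q macrophages of the same libraries were MHC-II-high in 82.1 and 83.8% of cells in EY against 94.4 to 98.7% elsewhere, and held 5905 and 6588 CPM of H2-Aa against 7250 to 11517 CPM in the joint normalisation of both classes. No test of the interaction was made in macrophages. H2-Eb1, the other class II beta chain, was not called in any comparison. It stood at 1499 and 1254 CPM in N, 2383 and 93.0 in E, 2776 and 182 in Y, and 400 and 458 in EY, so the replicates of E and of Y differed by over 10-fold.

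The promoters of class II genes share a short regulatory block that includes a Y box, bound by the factor NF-Y. Stretches of 97 bases upstream of 3 class II genes are shown here because their genes moved together in the interaction or belong to the same gene cluster on chromosome 17, with the Y box TGATTGG in capitals. They were taken from RefSeq promoters of build GRCm38.p6, on the strand of the gene, from chr17:34287847-34287943 for H2-Aa (minus strand), chr17:34305736-34305832 for H2-Eb1 (plus strand) and chr17:34145087-34145183 for H2-DMb2 (plus strand).
H2-Aa: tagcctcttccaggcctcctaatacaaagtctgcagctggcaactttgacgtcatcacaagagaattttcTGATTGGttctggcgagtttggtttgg
H2-Eb1: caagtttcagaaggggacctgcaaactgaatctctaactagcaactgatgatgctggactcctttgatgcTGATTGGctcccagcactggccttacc
H2-DMb2: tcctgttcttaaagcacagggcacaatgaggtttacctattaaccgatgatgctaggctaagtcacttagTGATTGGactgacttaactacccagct
The box starts 50, 61 and 92 bases before the annotated start. On either strand (TGATTGG or CCAATCA) it lay within 250 bases upstream in 4 of the 7 class II list genes with a RefSeq promoter here, H2-Aa, H2-Eb1, H2-DMb1 and H2-DMb2, and in 7.23% of 32851 promoters, or 8.38% of 27025 gene symbols. The match is a description of the letters and not of binding.

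**Figure D2:**
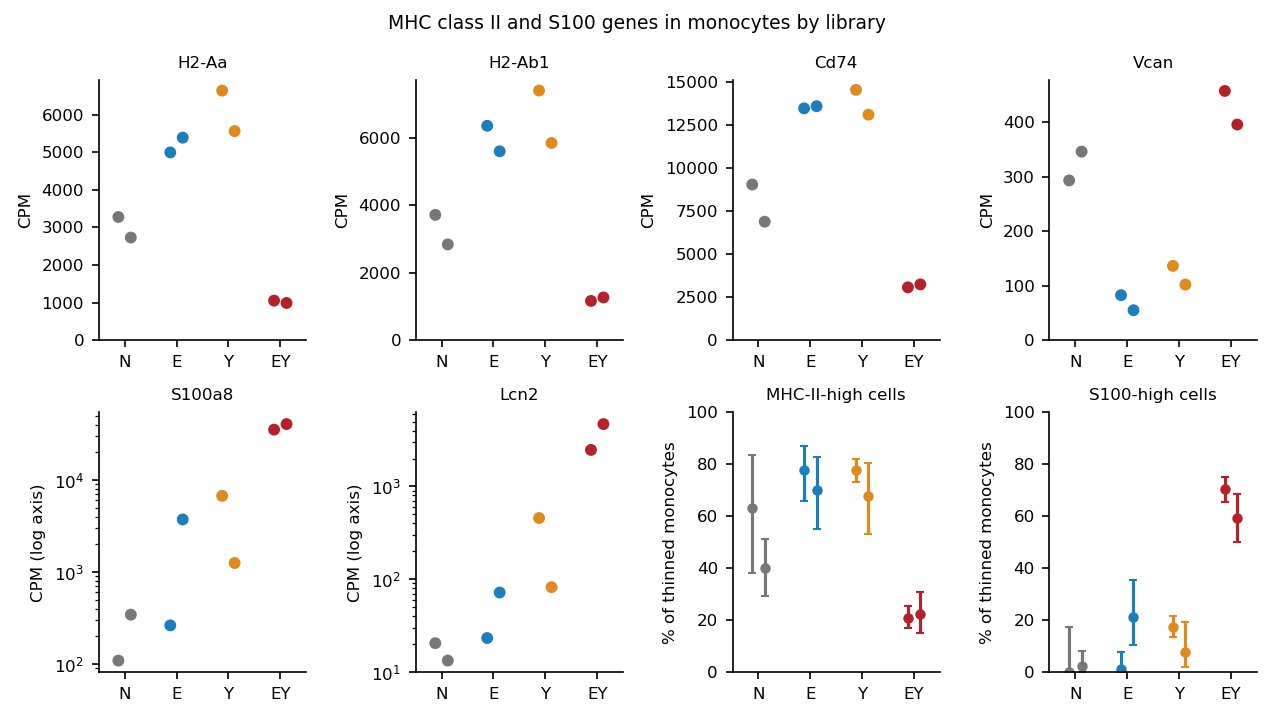
Level of 6 genes in the summed monocytes of each library, in CPM on linear axes for H2-Aa, H2-Ab1, Cd74 and Vcan and on log axes for S100a8 and Lcn2, and the percentage of monocytes called MHC-II-high or S100-high after thinning, with 95% exact intervals. The EY libraries are lowest in the class II genes (H2-Aa at 1052 and 990 CPM) and highest in S100a8 (35184 and 40429 CPM).

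Vcan and Ifitm6, of a list of 14 classical monocyte genes, were called in the opposite direction in the interaction, where 12 of the 14 had an estimate above 0 and 2 below (median 2.02). Vcan stood at 293 and 346 CPM in N, 82.5 and 54.9 in E, 136 and 102 in Y, and 457 and 395 in EY, so N and EY were high, and E and Y low with no overlap. Its interaction was 4.07 ± 0.43 (log2, SE, adjusted p = 0.00333), called in 17 of 18 alternatives. Ifitm6 stood at 136 and 180, 74.8 and 47.9, 85.7 and 57.6, and 392 and 290 CPM in the same order (3.65 ± 0.48, adjusted p = 0.0216). Those were the 2 genes called higher in the interaction. For the same list, all 14 had an estimate above 0 for EY against Y (median 1.28, all genes −0.02). Of the 14, 3 were called, where 0.189% of all genes were called higher. Among them were Vcan (1.82 ± 0.29, adjusted p = 0.0391) and Ifitm6 (2.21 ± 0.33, adjusted p = 0.0365). In the interaction the 2 other genes called lower were Slamf9, a receptor of the SLAM family (−5.46 ± 0.77, adjusted p = 0.0336), and Lgals3bp, a secreted galectin-binding protein that interferons induce (−3.26 ± 0.48, adjusted p = 0.0417). Lgals3bp was high in E alone, at 364 and 242 CPM against 34.1 to 126 CPM in the other libraries.

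The gene with the most stable YAP difference was Il1r2, which encodes the decoy receptor that binds interleukin-1 without signalling (chromosome 1, GRCm38, 40074079 to 40125231, plus strand). It stood at 47.7 and 53.0 CPM in N, 56.7 and 106 in E, 517 and 479 in Y, and 1053 and 2004 in EY. Every library with YAP lay above every library without it, which the rule for naming genes required. In an additive model with a term for each transgene the YAP difference was 3.78 ± 0.33 (log2, SE, adjusted p = 0.00193), and it passed in all 18 alternatives, from 3.02 to 4.05. Il1r2 stood at 541, 968 and 1719 CPM in S100-high cells and at 521, 853 and 1544 CPM in MHC-II-high cells of Y1, EY1 and EY2. In the few S100-high cells of E2 and N2, 10 and 2 cells, it stood at 925 and 397 CPM against 33.7 and 108 CPM in MHC-II-high cells, and in Y2, with 3 such cells, at 187 against 566 CPM. For YAP, 33 of 6338 genes were called (0.521%), 27 higher (0.426%) and 6 lower (0.0947%).

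Il1a, Inhba and Hbegf were also higher with YAP. Il1a, an alarm cytokine of the interleukin-1 family, stood at 81.7, 80.5, 51.6 and 59.2 CPM in the libraries without YAP (N1, N2, E1, E2, an order kept below) and at 251, 281, 896 and 674 CPM in those with it (Y1, Y2, EY1, EY2), a rise of 2.79 ± 0.40 (adjusted p = 0.0276). Inhba, the subunit of activin A, stood at 123, 23.7, 64.5 and 80.3 CPM without YAP and at 785, 335, 1170 and 497 CPM with it (3.42 ± 0.51, adjusted p = 0.0276). Hbegf, a growth factor that binds the EGF receptor, stood at 6.81, 6.63, 7.74 and 1.41 CPM and at 54.8, 64.3, 34.2 and 23.4 CPM (3.06 ± 0.38, adjusted p = 0.0157). The arms did not overlap for any of the 3, which the rule for naming genes required. Hbegf was 144 CPM in keratin-high cells against 33.2 CPM in the pooled monocytes, and the part of free epithelial RNA in its rise was not tested. Il1b, the main secreted interleukin-1 of monocytes, lay at 4744 to 6718 CPM outside EY and at 9039 and 9422 CPM in EY, and did not pass for YAP (0.42 ± 0.21, adjusted p = 0.452). Of 18 inflammatory cytokine genes tested, 1 was called higher, Il1a, where 0.426% of all genes were.

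Lrg1, Wfdc21 and F3 were higher with YAP as well, and each was also higher in S100-high than in MHC-II-high cells of Y1, EY1 and EY2. In those libraries Wfdc21 stood at 2500, 2721 and 2298 CPM in S100-high cells against 240, 434 and 397 CPM, and F3 at 60.1, 66.3 and 34.5 CPM against 4.57, 21.2 and 25.3 CPM. The share of S100-high cells was 21.3% in E2 (10 cells) and 8% in Y2 (4 cells). Its part in the differences of these genes was not tested. Lrg1 stood at 20.4, 1.89, 2.58 and 69.0 CPM without YAP and at 160, 73.1, 732 and 707 CPM with it (4.30 ± 0.68, adjusted p = 0.0276). Wfdc21, a small secreted protein of the whey acidic family, stood at 54.5, 30.3, 10.3 and 206 CPM and at 608, 208, 2423 and 2059 CPM (3.95 ± 0.69, adjusted p = 0.0393). F3, tissue factor, which starts blood clotting, stood at 0, 0.947, 2.58 and 5.63 CPM and at 14.4, 13.3, 69.3 and 39.0 CPM (3.70 ± 0.44, adjusted p = 0.0157). All 3 were highest in both EY libraries. Lrg1 and Wfdc21 had their highest value without YAP in E2, the library with 9 of 47 cells high in neutrophil genes, and Y2 lay just above it. Without the cells high in neutrophil genes the differences were 5.35, 4.50 and 4.09 and still passed. Those cells were 1 in N2, 9 in E2, 12 in Y1, 11 in EY1 and 4 in EY2. The same cut caught 95.3% of the neutrophil gate in EY1 and 72.9% in EY2, and neutrophil RNA in cells below it was not tested. Lcn2, lipocalin, an iron-sequestering protein of neutrophils, was also called (5.42 ± 0.71, adjusted p = 0.0163). So was Mmp8, a neutrophil collagenase (3.31 ± 0.59, adjusted p = 0.0393). With Il1r2, which the neutrophil list also holds, 3 of its 11 genes tested were called higher, against 0.426% of all genes. S100a8 and S100a9 of that list were not called for YAP (4.16 ± 0.79, adjusted p = 0.0504, and 3.07 ± 1.34, adjusted p = 0.374). Lcn2 was 11903 CPM in the neutrophil gate against 1259 CPM in the pooled monocytes, and the part of free neutrophil RNA in its difference was not tested.

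Oxygen and sugar genes were also among those higher with YAP. Slc2a1, the glucose transporter GLUT1, stood at 116, 103, 111 and 127 CPM without YAP and at 224, 171, 318 and 306 CPM with it (1.14 ± 0.20, adjusted p = 0.0393). Ero1l, an oxidase of the endoplasmic reticulum that hypoxia induces, stood at 88.6, 69.1, 38.7 and 63.4 CPM and at 209, 171, 330 and 372 CPM (2.06 ± 0.32, adjusted p = 0.0276). Hilpda, a lipid droplet protein induced by hypoxia, stood at 218, 109, 124 and 145 CPM and at 836, 408, 636 and 785 CPM (2.21 ± 0.30, adjusted p = 0.0196). None of the 3 overlapped between the arms, and the share of all genes without overlap was not counted. Of 24 hypoxia and glycolysis genes tested, 22 had an estimate above 0 with a median of 0.49, against −0.01 over all genes. The 2 called were Slc2a1 and Ero1l, where 0.426% of all genes were called higher. Hilpda is not on that list. The core ACGTG of the element that hypoxia-inducible factors bind is shown in capitals in 70 bases upstream of Slc2a1 and Hilpda, at chr4:119108669-119108738 and chr6:29272543-29272612 (RefSeq, GRCm38.p6, both plus strand), because both genes rose.
Slc2a1: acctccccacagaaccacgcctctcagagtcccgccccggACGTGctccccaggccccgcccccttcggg
Hilpda: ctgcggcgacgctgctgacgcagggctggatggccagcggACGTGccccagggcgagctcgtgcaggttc
ACGTG or its other strand CACGT lay within 250 bases upstream of 13 of 24 hypoxia list genes with a promoter here and in 16.6% of all 32851 promoters, or 18.5% of gene symbols.

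The other genes named for YAP were at low levels. Kazald1 stood at 0, 1.89, 2.58 and 4.23 CPM without YAP and at 63.5, 13.3, 26.6 and 27.3 CPM with it (3.69 ± 0.65, adjusted p = 0.0393). Ppp1r3b, a glycogen-targeting subunit of protein phosphatase 1, stood at 0, 3.79, 18.1 and 15.5 CPM and at 58.6, 22.2, 64.7 and 74.0 CPM (2.60 ± 0.43, adjusted p = 0.0300). The non-coding gene E230032D23Rik had 2 UMIs in all libraries without YAP and 188 with it, a ratio of 24.7 (exact counting interval 6.74 to 205). It overlaps Tnfrsf26, a receptor of the TNF family that was also called, at the first bases of both, on opposite strands of chromosome 7, and how reads there were split is not known. Fcgr2b, the inhibitory receptor for IgG, lay at 274 to 428 CPM without YAP and at 740 to 1204 CPM with it (1.46 ± 0.24, adjusted p = 0.0298).

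Falls with YAP were fewer. Rnase6, a ribonuclease of myeloid cells, stood at 74.9, 70.1, 111 and 67.6 CPM without YAP and at 24.2, 37.7, 19.4 and 17.5 CPM with it (−1.78 ± 0.28, adjusted p = 0.0276). Adgre4, an adhesion receptor found on monocytes of the non-classical kind, stood at 13.6, 52.1, 20.6 and 40.8 CPM and at 2.89, 11.1, 3.46 and 0 CPM (−3.30 ± 0.54, adjusted p = 0.0298). Cdk14, a cyclin-dependent kinase, fell from 25.8 to 48.3 CPM to 7.79 to 15.5 CPM (−1.61 ± 0.29, adjusted p = 0.0444). Those were all the falls that met the rule for naming. Cd209a, a lectin of monocyte-derived dendritic cells and 1 of 30 panel genes, was also called lower. It was uneven without YAP, at 0, 39.8, 7.74 and 59.2 CPM, and had 2 UMIs in all 4 libraries with YAP against 87 without, a ratio of 166 (exact counting interval 44.5 to 1390) that N1, at 0, does not share.

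**Figure D3:**
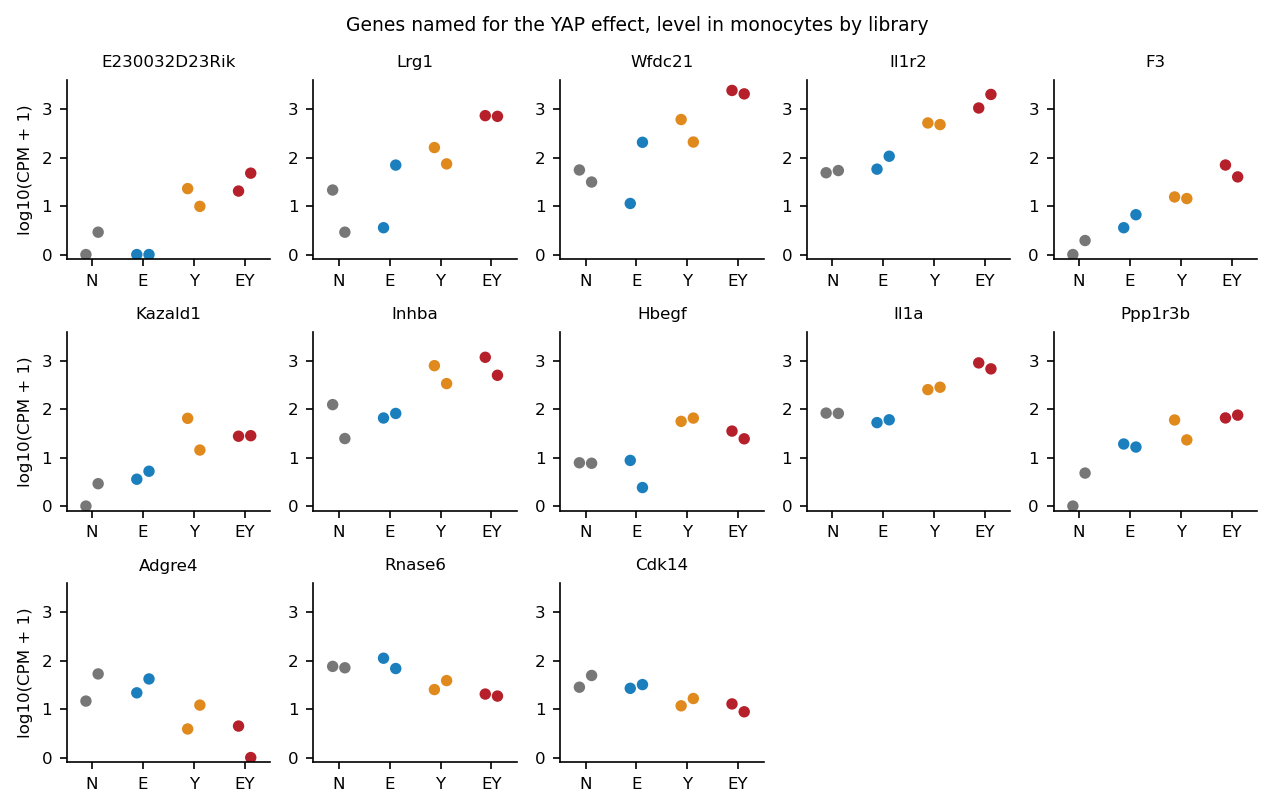
Level of the 13 genes named for the YAP difference in the summed monocytes of each library, as log10(CPM + 1), with groups on the x axis. The top 10 genes lie higher in Y and EY (Il1r2 at 479 to 2004 CPM) than in N and E (47.7 to 106 CPM), and the bottom 3 lie lower.

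The YAP calls leaned on single libraries. With E2 left out only 2 genes passed, Il1r2 and Mrc1, the mannose receptor (13.6, 11.4, 5.16 and 46.5 CPM without YAP, 92.3, 70.9, 28.2 and 40.9 CPM with it), and the latter was not called with all libraries (1.32 ± 0.59, adjusted p = 0.377). Without Y1, 5 passed, without E1, EY1 or EY2, 8 each, without N2, 71, and without Y2, 72. Xist, the RNA that silences an X chromosome in females, stood at 605 CPM in Y2 and at 0 in the other 7 libraries, and its part in the results was not tested.

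Between EY and N, 64 genes were called (1.01%), 48 higher (0.757%) and 16 lower (0.252%). S100a8 stood at 109 and 344 CPM in N and at 35184 and 40429 CPM in EY, with 263 and 3723 in E and 6718 and 1252 in Y (7.30 ± 1.29, adjusted p = 0.0325). S100a8 also stood at 2453 and 1663 CPM in C1q macrophages of EY and at 151580 CPM in the pooled neutrophil gate, and the part of free RNA in its difference was not tested. Nos2, the inducible nitric oxide synthase of activated myeloid cells, stood at 54.5 and 16.1 CPM in N, 30.9 and 53.5 in E, 161 and 17.7 in Y, and 703 and 656 in EY (4.74 ± 0.88, adjusted p = 0.0397). Mt1, a metallothionein that binds zinc and copper, went from 286 and 394 CPM to 2622 and 4535 CPM (3.37 ± 0.39, adjusted p = 0.0104). Of the 23 genes tested in a list of monocytic suppressor genes, 4 were called higher and 21 had an estimate above 0, with a median of 1.06. Prtn3, a serine protease of myeloid granules, had 2 UMIs in N and 370 in EY, a ratio of 46.0 (exact counting interval 12.6 to 381). Tnfrsf26 had none in N and 131 UMIs in EY, at least 10.8-fold higher against a floor of 3 UMIs over the group.

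Among the 16 genes lower in EY than in N were H2-Aa, H2-Ab1 and Cd74 (−1.55 ± 0.21, −1.43 ± 0.23 and −1.33 ± 0.20, adjusted p = 0.0173, 0.0239 and 0.0210). Cx3cr1, the fractalkine receptor of patrolling monocytes and resident macrophages, stood at 20.4 and 67.3 CPM in N and at 3.23 and 1.95 CPM in EY (−4.10 ± 0.65, adjusted p = 0.0235). Cbfa2t3, a transcriptional co-repressor of blood cells, stood at 40.9 and 47.4 CPM in N, 64.5 and 42.3 in E, 28.0 and 86.4 in Y, and 2.08 and 5.84 in EY (−4.06 ± 0.72, adjusted p = 0.0325). Klrb1b, a C-type lectin receptor, stood at 54.5 and 62.5 CPM in N, 41.3 and 26.8 in E, 79.9 and 133 in Y, and 10.9 and 11.7 in EY (−2.43 ± 0.39, adjusted p = 0.0239). Rab7b, a GTPase of late endosomes, fell from 95.4 and 162 CPM to 16.2 and 27.3 CPM, and Eif3j2, a subunit of a translation initiation factor, from 34.1 and 27.5 to 1.62 and 1.95 CPM. The count of 64 fell to 3 without EY2 (F3, Il1a and Il1r2), to 10 without EY1, to 26 without N1 and to 33 without N2, of which 7 were shared with the 64.

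The single transgenes gave no call. For E against N, Y against N and the E6-E7 term, 0 of 6338 genes (0%) passed in edgeR, where 376, 389 and 428 had an unadjusted p below 0.05, and DESeq2 called 15, 6 and 10. Interferon-stimulated genes were high in E1. Their summed level was 27484 CPM in E1 and 10631 in E2, against 5055 to 9091 CPM in the other 6 libraries, and 25 of 26 had an estimate above 0 for E against N, with a median of 1.64 and none called. Isg15, an interferon-induced ubiquitin-like protein, stood at 654 and 441 CPM in N, 5776 and 1303 in E, 562 and 439 in Y, and 892 and 729 in EY (2.71 ± 0.57 for E against N, adjusted p = 0.366). Genes with the lowest p for E against N were Lgals3bp (2.34 ± 0.36), Rtp4 (2.31 ± 0.43) and Gm15056 (2.92 ± 0.49) above 0 and Vcan (−2.25 ± 0.31), Fn1 (−1.93 ± 0.32) and Itga1 (−2.00 ± 0.42) below it, with adjusted p of 0.162 to 0.366. For Y against N these were Il1r2, Fcrla and Fcgr2b above 0 and Vcan, Cdk14 and Il6 below it, and for the E6-E7 term Gm15056, AB124611 and Ccl12 above and Fbxo32, Pde3b and Klrb1b below, none of which passed.

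Monocytes and C1q macrophages of the same libraries differed in their YAP response for 52 of 8492 genes (0.612%), 32 with a higher (0.377%) and 20 with a lower difference in monocytes (0.236%), by an interaction of class and YAP with each library as a block. Both classes were normalised together here, so levels differ slightly from those above. Cd24a, a sialic-acid-bearing surface protein, stood at 19.4 to 52.9 CPM without YAP and 90.1 to 220 CPM with it in monocytes, and at 31.6 to 58.0 and 40.6 to 60.7 CPM in macrophages (difference of log2 changes 1.83 ± 0.25, adjusted p = 0.00459). Tle1, a transcriptional co-repressor, was 0 to 5.77 and then 5.95 to 17.8 CPM in monocytes, and 17.4 to 34.0 and then 10.9 to 29.7 CPM in macrophages (2.33 ± 0.45, adjusted p = 0.0345). Prkcb, a protein kinase C, lay at 6.46 to 19.2 and 14.5 to 37.4 CPM in monocytes, and in macrophages at 25.8 to 101 without and 9.33 to 33.8 CPM with YAP (1.78 ± 0.35, adjusted p = 0.0356). Il1r2 had a smaller difference in macrophages, at 132 to 287 CPM without YAP and 516 to 969 CPM with it (1.89 ± 0.25, adjusted p = 0.00459).

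Of 27 interferon-stimulated genes, 2 were called lower in this comparison, among them Rsad2, and all 27 had an estimate below 0 (median −0.85). Over all genes, 0.236% were called lower and 0.377% higher. Rsad2, the antiviral enzyme viperin, stood at 271, 66.4, 1581 and 438 CPM in monocytes without YAP and at 65.3, 37.4, 140 and 141 CPM with it, while in macrophages it stood at 32.4, 28.0, 271 and 231 CPM and at 115, 81.5, 196 and 109 CPM (−2.31 ± 0.39, adjusted p = 0.0179). Cxcl9, a chemokine for activated T cells, lay at 389 to 1942 and 68.1 to 1060 CPM in monocytes, and at 203 to 605 and 48.9 to 2059 CPM in macrophages (−1.68 ± 0.29, adjusted p = 0.0179). Cnn3, an actin-binding calponin, was low in both classes (−1.94 ± 0.42, adjusted p = 0.0470) and was called under 3 of 16 alternatives only. Hmox1, the haem-degrading enzyme, was one of the other genes called higher in this comparison and Il6 one of those called lower, both named after their values were seen. All 18 cell cycle genes had an estimate above 0, with a median of 2.06 against 0.02 over all genes, and 1, Stmn1, was called, a gene over 5 times higher in the keratin-high, T-cell or neutrophil gate than in monocytes, while only 5 of the 18 could be tested in monocytes alone. Outside that list, other genes of dividing cells were also called higher. They were Hist1h1b (3.85 ± 0.45, adjusted p = 0.00214), Pclaf, Ube2c, Ckap2l, Prc1, Spc24, Cenpm, Hist1h2ap and Hist1h2ae. All of these but Cenpm were likewise over 5 times higher in 1 of those gates.

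**Figure D4:**
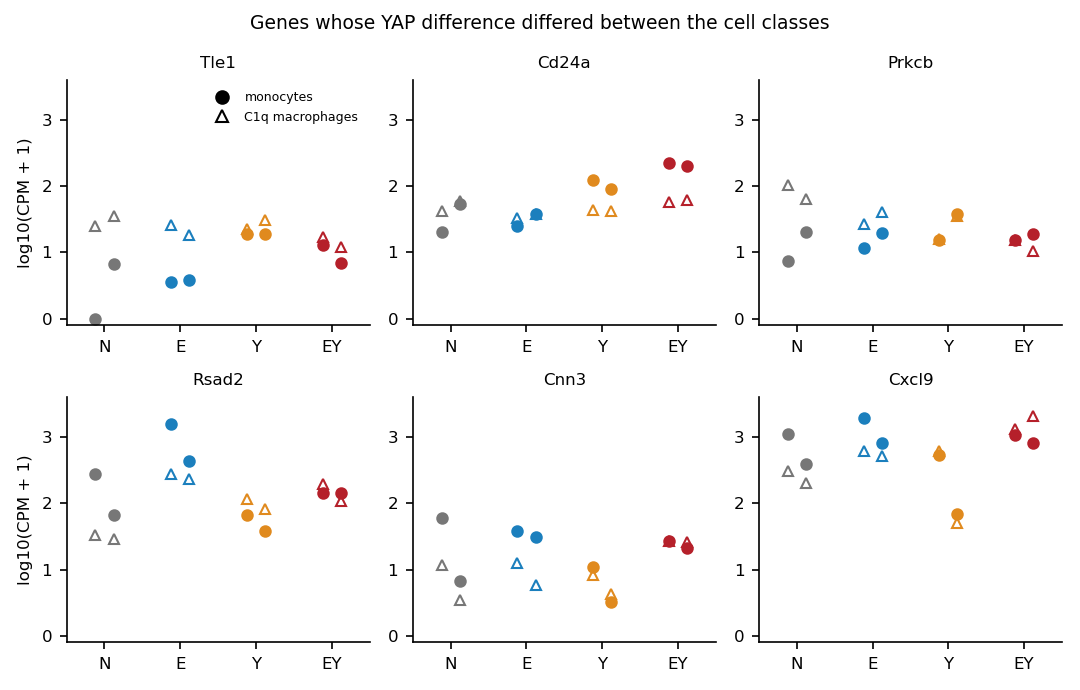
Level of 6 genes whose YAP difference differed between monocytes (filled circles) and C1q macrophages (open triangles), as log10(CPM + 1) by library. Cd24a rises with YAP in monocytes to 90.1 to 220 CPM and stays at 40.6 to 60.7 CPM in macrophages.

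Lists with a single call or a pair were the rest. Over all genes, 0.521% were called for YAP and 1.01% for EY against N. Of 22 matrix genes, F3 and Hbegf were called for YAP, and of 20 phagocytosis genes, Fcgr2b. Of 6 dendritic cell genes Cd209a was called for YAP, and of 6 non-classical monocyte genes and 19 receptors Cx3cr1 was called for EY against N. Markers of other cells also gave calls, among them Ighm, an antibody heavy chain, lower for YAP and for EY against N (2 genes tested), and Krt17, a stress keratin (11 tested), higher for EY against N. The keratinocyte list had its highest sum in EY2, as given above. Of the 30 panel genes, 1 was called for YAP, Cd209a. Several lists held no call in any of the comparisons between groups, which at such small shares over all genes is no result about their members. They included MHC class I presentation (13 genes tested), interferon-stimulated genes (26), cell cycle genes (5), red cell genes (4), fibroblast or vessel genes (2), sex-linked genes (2), chemokines (17), immediate early and heat shock genes (20), lineage transcription factors (18), lipid and iron handling (16), and resident macrophage genes (11). The 17 chemokines had medians of −0.25 for YAP and 0.22 for EY against N. Cxcl2, which attracts neutrophils, lay at 2883 to 11552 CPM outside EY and at 12346 and 18794 CPM in EY, and did not pass (0.87 ± 0.40 for YAP, adjusted p = 0.391). Arg1, an arginine-degrading enzyme of suppressive myeloid cells, stood at 6.81, 120, 5.16 and 9.86 CPM without YAP and at 452, 66.5, 119 and 138 CPM with it, and did not pass either (2.52 ± 0.71, adjusted p = 0.175). Spp1, Vegfa and Thbs1 likewise did not pass for YAP, with log2 estimates of 1.42, 0.49 and 1.22.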

How the data were processed

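The deposited files were gene by barcode matrices of raw UMI counts from 8 droplet libraries, made by the authors with Cell Ranger on mm10 (per the labels), with 32285 features and no normalisation. The labels and the study's methods name different versions of the capture kit. Kept cells had 1000 to 5500 genes, no more than 30000 UMIs and a mitochondrial share of 7% or less, as in the study. The monocytes and gene lists were chosen with earlier results of these data known. Counts were summed over the monocytes of each library, since cells are not replicates, and tested with the edgeR 4.0.16 quasi-likelihood test in R 4.3.3 (TMM scaling, filterByExpr, Benjamini-Hochberg over all genes, called at an adjusted p under 0.05). YAP and E6-E7 effects came from an additive model, and other contrasts from a model with 1 mean per group. EY against Y and the interaction were added after the data were seen. Both share libraries with the other contrasts. DESeq2 1.42.0 was an alternative. The 19 genes that the rule used were left out of calls.

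Levels are TMM-scaled CPM of the summed counts, except levels within states and gates, which are unscaled. Named genes were the 10 largest rises and falls for YAP, 5 for EY against N and 3 elsewhere, taken from the calls whose mean reached 20 CPM in 1 arm, with no overlap between arms and no more than 5 times higher level in keratin-high, T-cell or neutrophil gates, or, where too few were called, the lowest p values. A panel of 30 genes was added, and the other genes were named as members of lists or after their values were seen. Shares used exact permutation tests (scipy 1.17.1). Intervals are exact at 95% and cover counting error only. Scrublet (scanpy 1.11.5) called 1 monocyte. It called only 0.0140% of barcodes in E1 and 0.0736% in EY1, so it did not work in those libraries, and doublets were removed only in an alternative. The fit was tested on simulated data. The title of N2 holds more than 1 animal number, and nothing else in the labels says how the animals of a group were kept apart, so p-values measure the spread between these libraries. Some results are not reported here.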

Additional observations from a re-analysis of the deposited data

Results flagged for a closer look

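These differences were picked out because a test of the difference between effects passed. The first are the interaction of the transgenes, a comparison added after the data were seen. On the log2 scale it was −3.37 for H2-Aa, −3.32 for H2-Ab1, −2.90 for Cd74, −4.06 for H2-DMb2, −5.46 for Slamf9 and −3.26 for Lgals3bp, and 4.07 for Vcan and 3.65 for Ifitm6. Slamf9 stood at 40.9 and 24.6 CPM in N, 175 and 63.4 in E, 60.0 and 48.8 in Y, and 5.77 and 1.95 in EY. The others are differences between monocytes and C1q macrophages in the YAP effect, at 2.33 for Tle1, 1.83 for Cd24a and 1.78 for Prkcb, and −2.31 for Rsad2, −1.94 for Cnn3 and −1.68 for Cxcl9. Groups of 2 libraries were too small for a search for single libraries that stand apart.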

How the results depend on the processing

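Each count of called genes depended on the settings. With no low-count filter the counts were 474 for YAP, 226 for E6-E7, 513 for EY against N, 195 for Y against N, 154 for E against N, 355 for EY against Y and 214 for the interaction. DESeq2 gave 144, 10, 122, 6, 15, 66 and 42 in the same order. Cells thinned to 2000 UMIs gave 12 for YAP, 2 for EY against N (Il1a and Mt1), 3 each for EY against Y and the interaction (H2-Aa, H2-Ab1 and Cd74 in both) and 27 for the class comparison. At least 3 of the 4 genes gave 52 for YAP, 7 for Y against N, 5 for E against N (Ccl5, Cd74, H2-Aa, H2-Ab1 and Vcan), 12 for EY against Y and 26 for the class comparison. At least 20 cells per library, which leaves out N1, gave 26 for EY against N. Lyz2 of at least 10 UMIs gave 1 for E6-E7, Gm15056. Leaving out the cells high in neutrophil genes, a setting chosen after the data were seen, gave 2 for Y against N, Il1r2 and S100a8. No upper limits gave 23 for the class comparison. With 1 library left out at a time the counts ran from 2 to 72 for YAP, 0 to 8 for E6-E7, 3 to 87 for EY against N, 0 to 16 for Y against N, 0 to 19 for E against N, 4 to 27 for EY against Y, 4 to 12 for the interaction and 19 to 114 for the class comparison. The causes were not tested. A lone library left in a group is assumed to vary like the others.

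The share differences passed in no setting, and with 1 library left out ran from 2.68 to 8.84 points (YAP) and 3.91 to 9.88 (E6-E7) of Ptprc-positive cells, and from −2.50 to 14.7 (YAP) and 10.8 to 22.7 (E6-E7) of the 3 gates.

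Signs turned only for genes that were not called, near 0 in most. With 1 library left out the log2 difference ran from −0.22 (without E2; −0.082 without E1) to 1.35 for Vcan, −0.14 (without E1; −0.012 without EY1) to 0.64 for Fn1, −0.31 to 0.021 (without E2) for Csf1r, −0.014 (without EY1) to 1.02 for Tnf and −1.22 to 0.12 (without N1) for Cxcl10 for YAP. For EY against N it ran from −7.81 to 1.74 (without N2) for Cd209a, −0.53 (without EY1; −0.38 without N2) to 1.27 for Tnf, −0.13 (without N1) to 0.75 for Vegfa and −0.70 to 0.021 (without N1) for Mmp14. Vcan for EY against N was −0.072 with thinned cells, and Vegfa (EY vs N) was −0.0519 with 3 of the 4 genes and −0.18 with 10 Lyz2 UMIs. Over 114 results for single genes, 1665 alternative values kept direction and side of the threshold, 239 lost the call and 88 gained it. N1 rests on 19 cells and 140968 UMIs, which limits every comparison with N. No paired analysis was made. Replicates 1 and 2 only name the libraries, and the groups share no animal numbers in the labels.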

Other observations

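H2-Eb1 was low in the same libraries in both classes. In C1q macrophages the unscaled level of H2-Eb1 was 525 CPM in E2 and 183 CPM in Y2 against 2530 to 6265 CPM in the other 6 libraries, while Cd74 in the macrophages of E2 and Y2, at 25664 and 27190 CPM, lay within the range of the others, 13238 to 33578 CPM. The cause was not tested.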
